A study of Homo sapiens with 8 samples.

Results

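The comparison set HepG2 cells that had received both active RNAs, a miR-552-3p mimic and an siRNA against importin8, against HepG2 cells that had received both matching controls. It used 4 of the 8 libraries of the study, chosen by their sample titles: 2 of the group with both active RNAs, called the combined libraries here, and 2 of the double control, called NC. HepG2 is an established line of human hepatocellular carcinoma, and every group was grown from this 1 line. A mimic or its control was given at 1 nM and an siRNA or its control at 30 nM, and RNA was taken at 72 h. The other 4 libraries, 2 with the mimic and a control siRNA (mimic alone) and 2 with the importin8 siRNA and a control mimic (siRNA alone), served to place the combined state. The columns of the deposited table carry abbreviated names that were read as these groups. No label ties the 2 libraries of a group to different cultures. The p-values rest on the spread between libraries, and that spread may be only technical.

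A microRNA is loaded into an Argonaute protein and pairs through its seed with complementary stretches, mostly in the 3′ untranslated parts of mRNAs, which lowers those mRNAs or their translation. Importin8, encoded by IPO8, is a carrier of the importin beta family that brings cargo into the nucleus, and Argonaute proteins are among its known partners. The title of the study places the question in the nuclear receptors FXR (NR1H4) and LXR (NR1H3 and NR1H2) and in the handling of sugar and fat by the liver. FXR senses bile acids and induces SHP (NR0B2), which represses bile acid synthesis, and LXR senses oxysterols and induces cholesterol efflux and lipogenesis.

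The mature miR-552-3p is shown because the seed defines the sites searched for later. It is read from RefSeq on GRCh38.p14, where it lies at chr1:34669614-34669634 on the minus strand, with bases 2 to 8 (the seed) in capitals. No other human mature miRNA in the RefSeq table used here has this seed.
hsa-miR-552-3p: aACAGGUGacugguuagacaa

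Totals of expected counts ranged from 21608563 to 22102373 over the 8 libraries, and 17715 of the 26716 genes listed passed the filter on low counts. Levels below are CPM (counts scaled to the library size) with the value of each library in order of replicate, changes are log2 fold changes of the combined libraries over NC, and a gene was called at an adjusted p under 0.05 in edgeR's quasi-likelihood test. Along principal component 1 (51.4% of the variance) both NC libraries stood at one end (-88.8 and -94.3) and the combined libraries at 41.1 and 38.3. The 2 NC libraries also differed more from each other than the 2 combined libraries did, with a chi-square per degree of freedom of 10.58 against 4.53. The 8 hepatocyte markers checked (ALB, AFP, APOA1, APOB, TF, SERPINA1, TTR and HNF4A) were expressed in every library.

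IPO8, the gene the siRNA targets (chromosome 12, 30628988 to 30695986, minus strand, GRCh38, GENCODE release 29), was at 34.7 and 33.3 CPM in NC and 7.65 and 8.30 CPM in the combined libraries. With the siRNA alone it was at 11.3 and 11.5 CPM and with the mimic alone at 25.4 and 24.6 CPM, so the combined libraries held the lowest values of the 8 and no groups overlapped. The combined level was 23.5% of that in NC, a log2 fold change of -2.09 (SE 0.09, adjusted p = 4.7e-08). It was also lower than in each single treatment, with -1.65 against the mimic alone (adjusted p = 1.4e-06) and -0.52 against the siRNA alone (adjusted p = 0.0022). Other genes of nuclear transport mostly moved the other way. In a list of 25 importins and exportins tested, IPO8 and importin alpha adaptors included, 19 rose and 2 fell. Of all genes tested 28.5% rose and 27.8% fell. The rises were small, with 0.99 for KPNA4 and 0.95 for KPNA2, both importin alpha adaptors, and 0.99 for CSE1L, which returns importin alpha to the cytoplasm.

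Between the combined libraries and NC, 9974 genes (56.3%) were called, 5053 higher and 4921 lower. These are 28.5% and 27.8% of all genes tested. Every count below of list members that rose or fell against NC is to be read beside these shares. Genes named from lists were mostly picked for large called changes, so statements that their libraries did not overlap are descriptions only. The share of all genes tested without overlap was not counted. A change of at least 2-fold was called for 3895 genes (22.0%), of which 1563 were higher and 2332 lower, and 219 genes were at least 8-fold higher and 363 at least 8-fold lower. The balance of higher and lower differed between kinds of transcript. Of 15161 genes listed as mRNA, 4737 were higher and 4313 lower. Of 2196 listed as lncRNA, 265 were higher and 493 lower, and of 357 pseudogenes 50 were higher and 115 lower. The median over all genes tested was -0.01, and -0.11 when only library totals set the scale, under which 44.3% in place of 50.7% of called genes were higher. In bulk RNA, fewer cells of a type and less RNA per cell cannot be told apart, and this holds for every fall below. The plot of change against level shows the genes tested.

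**Figure D1:**
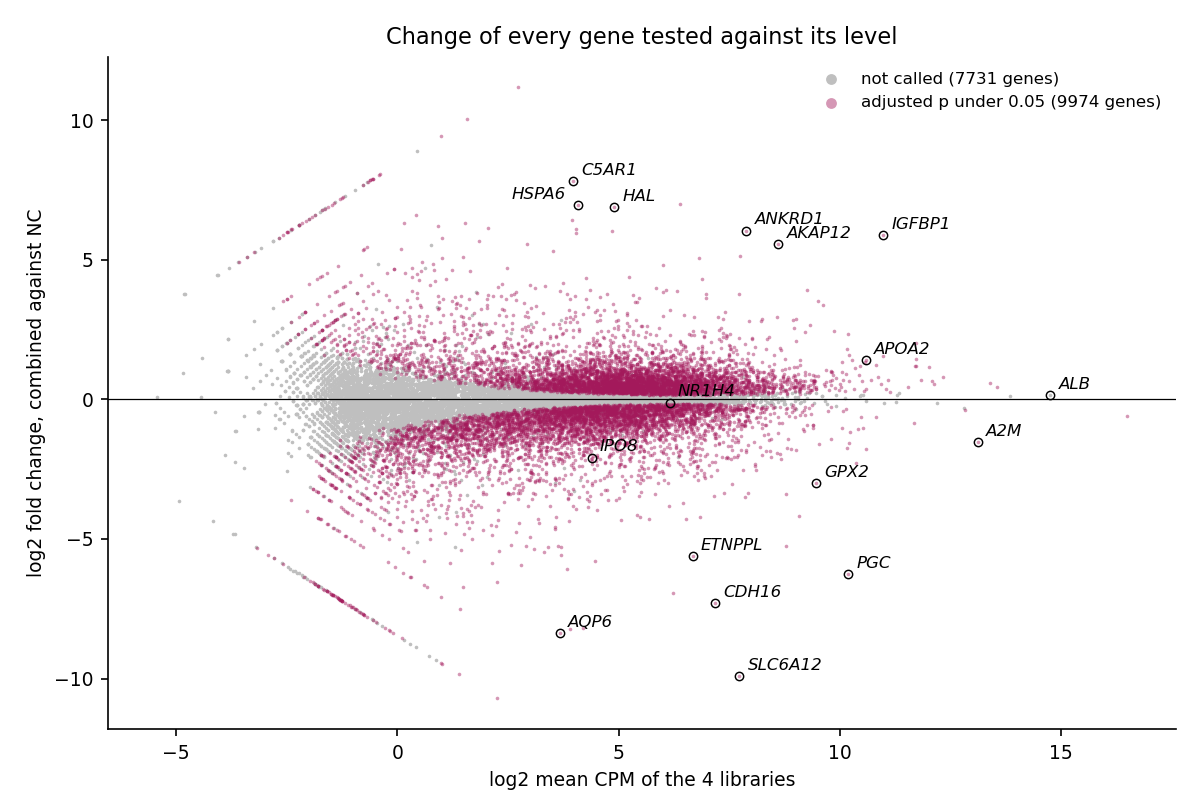
Log2 fold change of the combined libraries over NC (vertical axis) against the log2 of the mean CPM over the 4 libraries (horizontal axis), 1 point per gene tested with a count in any of them, with genes called at an adjusted p under 0.05 in colour and some named genes circled. Called genes lie on both sides of 0, with 5053 above and 4921 below, and the points on slanted lines at the left are genes with very few counts.

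The combined state was closer to either single treatment than to NC. The root mean square difference in log2 CPM over genes tested was 1.117 to NC, 0.705 to the mimic alone and 0.669 to the siRNA alone. Against the mimic alone 5934 genes (33.5%) were called, 3069 higher and 2865 lower, and against the siRNA alone 5607 genes (31.7%), 2649 higher and 2958 lower. The last split depends on the scaling: 47.2% of called genes were higher with TMM and 36.7% with library totals only. These 3 comparisons share the combined libraries, so their values are given side by side and are not independent. The mean of the combined libraries lay between the means of both single treatments for 57.4% of genes tested, above both for 20.6% and below both for 22.0%. Among genes called at least 2-fold lower than NC, 49.0% lay below both, and among those at least 2-fold higher 36.9% lay above both. These last shares come from genes picked on the same combined libraries and are descriptions only.

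Genes of the study's theme moved in different directions. FXR itself (NR1H4, chromosome 12, 100473708 to 100564413, plus strand) was at 73.3 and 74.7 CPM in NC and 70.3 and 66.2 CPM in the combined libraries, against 27.6 and 27.5 CPM with the mimic alone and 84.7 and 77.1 CPM with the siRNA alone. The combined values lay just below those of NC and far above those of the mimic alone. The change from NC was -0.12 (SE 0.07, adjusted p = 0.16), which did not pass the test with TMM scaling but did with upper quartile scaling (-0.18, adjusted p = 0.03) and with library totals (-0.21, adjusted p = 0.021). Against the mimic alone NR1H4 was higher by 1.31 (adjusted p = 1.4e-06). SHP (NR0B2, chromosome 1, 26911489 to 26913966, minus strand), an FXR target and corepressor, was at 138 and 123 CPM in NC, 49.1 and 49.3 with the mimic alone, 316 and 318 with the siRNA alone and 168 and 177 in the combined libraries. Both combined values were above both NC values, and the rise was 0.40 (SE 0.07, adjusted p = 7.2e-04).

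Enzymes of bile acid synthesis went apart. CYP7A1, the rate-limiting enzyme of the classical pathway, rose from 1.31 and 1.80 CPM in NC to 10.6 and 10.2 CPM, with 2.11 and 2.36 CPM under the mimic alone and 22.3 and 21.2 CPM under the siRNA alone. The combined libraries thus stood above NC and the mimic alone and below the siRNA alone, and the change from NC was 2.74 (SE 0.16, adjusted p = 4.3e-07). CYP8B1, the sterol 12-alpha-hydroxylase that sets the share of cholic acid, fell from 3.87 and 4.60 CPM to 0.866 and 0.712 CPM, a change of -2.42 (SE 0.27, adjusted p = 2.9e-05). With the mimic alone it was at 0.183 and 0.283 CPM and with the siRNA alone at 5.65 and 6.56 CPM, so the combined values lay between them. Of 12 bile acid synthesis genes tested, 6 rose and 4 fell (median 0.26). Those were 50.0% and 33.3%, beside 28.5% and 27.8% of all genes tested. AKR1C4, a liver 3-alpha-hydroxysteroid dehydrogenase, rose by 3.57 and BAAT, the enzyme that conjugates bile acids with amino acids, by 1.72, while HSD3B7 was at -1.45 and AMACR, a racemase of the side-chain pathway, at -1.38.

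**Figure D2:**
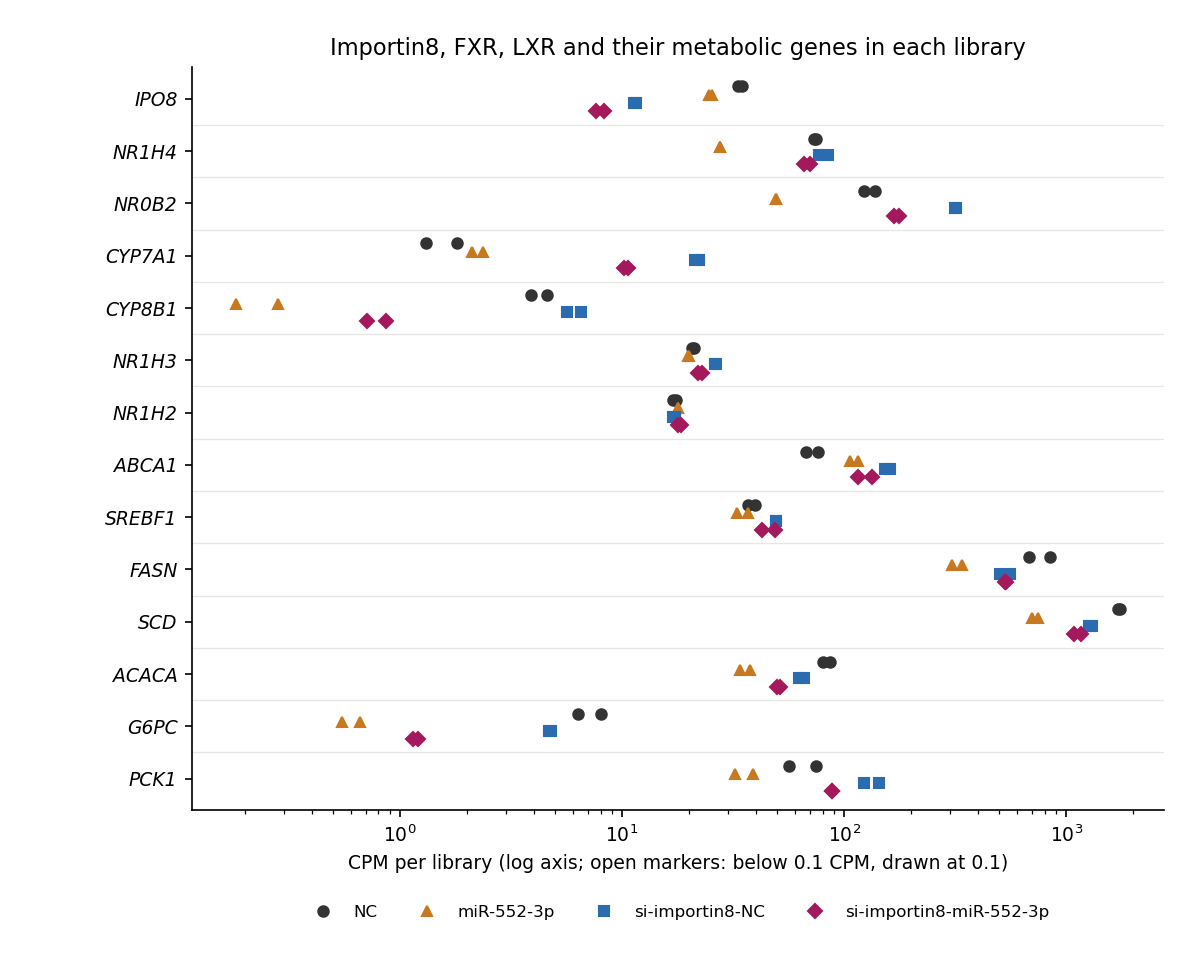
CPM on a log axis (horizontal) of IPO8 and theme genes (vertical axis) in each of the 8 libraries, 1 marker per library, with shape and colour giving the 4 groups. NR1H4 in the combined libraries (70.3 and 66.2) sits beside NC (73.3 and 74.7), while CYP8B1 and G6PC sit well below NC and CYP7A1 well above it.

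Among 19 tested genes of the FXR list (FXR, SHP and known targets), 8 rose and 7 fell (median 0.10), so the list had no common direction. Against the mimic alone 12 were higher and 3 lower, beside 17.3% and 16.2% of all genes tested, and against the siRNA alone 2 were higher and 9 lower, beside 15.0% and 16.7%. The 3 fibrinogen chains, adjacent genes on chromosome 4, were the members with the largest rises. FGA went from 86.9 and 64.7 CPM in NC to 1148 and 1149 CPM (log2 fold change 3.92, SE 0.13, adjusted p = 1.7e-08). FGB went from 34.1 and 23.6 to 390 and 391 CPM (log2 fold change 3.76, SE 0.14, adjusted p = 1.3e-07). FGG went from 162 and 126 to 847 and 858 CPM (log2 fold change 2.56, SE 0.11, adjusted p = 6.0e-08). No NC library reached a combined library for any of the 3. SLC51A, a subunit of the basolateral bile acid exporter, rose by 2.23 and KNG1, the kininogen precursor, by 2.32. KLB (chromosome 4, 39406853 to 39451536, plus strand), the beta-klotho co-receptor through which FGF19 acts, fell most, from 436 and 448 CPM to 43.4 and 43.6 CPM (log2 fold change -3.35, SE 0.07, adjusted p = 1.7e-09). Its receptor partner FGFR4 was at -1.0 and the phospholipid exporter ABCB4 at -1.09, both called.

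LXR receptors did not pass the test, with 0.11 (SE 0.08, adjusted p = 0.25) for NR1H3 and 0.08 (SE 0.08, adjusted p = 0.46) for NR1H2. The sign for NR1H2 turned with library totals (-0.02). Of 14 LXR genes tested 6 rose and 4 fell (42.9% and 28.6%, beside 28.5% and 27.8% of all genes tested). ABCA1, the cholesterol efflux pump, rose from 67.3 and 76.2 CPM in NC to 133 and 116 CPM (log2 fold change 0.80, SE 0.09, adjusted p = 3.2e-05), and both single treatments were also above NC (106 and 115 CPM with the mimic, 152 and 161 CPM with the siRNA). MYLIP, a ubiquitin ligase induced by LXR, rose by 1.02, and MLXIPL, the carbohydrate-responsive factor ChREBP, fell by 1.31 on the log2 scale. SREBF1, the master factor of lipogenesis, was at 36.8 and 39.8 CPM in NC and 42.8 and 48.7 CPM in the combined libraries (log2 fold change 0.26, SE 0.09, adjusted p = 0.027). That call was lost without NC replicate 1, without combined replicate 2, with upper quartile scaling, with library totals and in DESeq2 (0.25, adjusted p = 0.1).

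Most genes of lipid synthesis fell. In the cholesterol list 21 of 25 genes tested fell and 2 rose, with a median of -0.89 beside -0.01 over all genes. LSS, which closes the sterol ring, fell from 204 and 239 CPM to 42.7 and 43.2 CPM (log2 fold change -2.37, SE 0.12, adjusted p = 4.6e-07). HMGCS1, which makes HMG-CoA, fell from 224 and 216 CPM to 71.3 and 69.5 CPM (log2 fold change -1.64, SE 0.06, adjusted p = 2.6e-08). For these enzymes both combined libraries were below both NC libraries. SREBF2, the factor that drives the pathway, was at -0.58 and DHCR7, the last reductase of the pathway, at -1.40, both called lower. Against the mimic alone 16 members were higher and 0 lower, beside 17.3% and 16.2% of all genes tested. Against the siRNA alone 1 was higher and 13 were lower, beside 15.0% and 16.7%.

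Fatty acid and triglyceride synthesis had 12 members that fell and 3 that rose of 16 tested (median -0.56). FASN, the fatty acid synthase, was at 682 and 841 CPM in NC and 537 and 531 CPM in the combined libraries (log2 fold change -0.51, SE 0.10, adjusted p = 0.0021). SCD, the stearoyl-CoA desaturase, fell from 1713 and 1743 CPM to 1169 and 1085 CPM (log2 fold change -0.62, SE 0.08, adjusted p = 7.5e-05). ACACA, which makes malonyl-CoA, went from 80.6 and 86.1 CPM to 51.5 and 49.6 CPM (log2 fold change -0.72, SE 0.07, adjusted p = 1.3e-05). With the mimic alone these 3 were lower still, at 306 and 339 CPM for FASN, 701 and 746 CPM for SCD and 33.9 and 37.5 CPM for ACACA. PNPLA3, a lipase of lipid droplets, fell by 2.30 on the log2 scale and DGAT1, which makes triglyceride, by 1.74. The members that rose were PLIN2, a coat protein of lipid droplets, from 633 and 389 CPM to 1761 and 1790 CPM (log2 fold change 1.80, SE 0.20, adjusted p = 2.2e-04), AGPAT2 (0.98) and the desaturase FADS1 (0.24). With PLIN2 in it, the summed level of the list was 4345 and 4339 CPM in NC and 4366 and 4284 CPM in the combined libraries, so the falls of single members were not matched by a lower sum.

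Lipoprotein genes split, with 7 higher and 8 lower of 19 tested (36.8% and 42.1%, beside 28.5% and 27.8% of all genes tested). In the cluster on chromosome 11, APOA5, an activator of triglyceride clearance, fell from 93 and 90.9 CPM to 12.8 and 14.2 CPM (log2 fold change -2.77, SE 0.07, adjusted p = 5.5e-09). APOA4 went from 9.0 and 7.89 to 1.97 and 2.70 CPM (log2 fold change -1.85, SE 0.25, adjusted p = 1.4e-04). APOA1, the main HDL protein, went from 1952 and 1746 to 872 and 903 CPM (log2 fold change -1.06, SE 0.08, adjusted p = 3.2e-06). None of the 3 overlapped between the groups. MTTP, which loads lipid onto APOB, was at -1.52 and LCAT, the cholesterol-esterifying enzyme of plasma, at -1.84, while APOB itself did not pass (0.13, adjusted p = 0.41). APOA2 rose by 1.40, APOC1 by 1.10 and APOM by 1.02.

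Fuel use had no common direction either. G6PC, the catalytic subunit of glucose-6-phosphatase and the last step of glucose output, fell from 8.01 and 6.31 CPM in NC to 1.2 and 1.14 CPM (log2 fold change -2.61, SE 0.23, adjusted p = 5.6e-06). PCK1, the gluconeogenic carboxykinase, was at 74.6 and 56.7 CPM in NC and 87.8 and 88.1 CPM in the combined libraries (log2 fold change 0.42, SE 0.14, adjusted p = 0.039). The 2 NC values of PCK1 lay far apart, and its call was lost without NC replicate 2, without either combined library, with no filter on low counts, with upper quartile scaling and with library totals. TAT, the tyrosine aminotransferase, rose from 4.82 and 3.86 CPM to 23.8 and 21.7 CPM (log2 fold change 2.39, SE 0.13, adjusted p = 2.4e-07). CREB3L3, a liver factor for fasting genes, fell from 89.4 and 84.1 to 12.2 and 12.9 CPM (log2 fold change -2.79, SE 0.08, adjusted p = 6.2e-09). Of 10 gluconeogenesis genes tested 5 rose and 5 fell (50.0% each, beside 28.5% and 27.8% of all genes tested). FBP1 and CYP2E1 were too low to be tested. In the fatty acid oxidation list 5 of 21 rose and 6 fell (23.8% and 28.6%), near the 28.5% and 27.8% of all genes tested, with 3 rises under upper quartile scaling and without NC replicate 2 or combined replicate 2, and 2 with library totals or without combined replicate 1. The carnitine acyltransferase CPT1A was at 1.63 and the carnitine carrier SLC25A20 at -2.73.

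The glycolysis list had 13 members that rose and 3 that fell of 22 (median 0.41). The glucose transporter SLC2A2 rose by 3.06, SLC2A3 by 2.21 and hexokinase HK2 by 2.86, while HK1 fell by 1.97 and the liver pyruvate kinase PKLR by 1.34 on the log2 scale. The summed level of this list was 13523 and 10399 CPM in the 2 NC libraries, which differed from each other, and 18124 and 18096 CPM in the combined libraries. In glycogen metabolism the targeting subunits of protein phosphatase went apart, PPP1R3B at 2.47 and PPP1R3C at -2.06.

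Stress-response genes rose nearly as a block. Of 25 genes from the unfolded protein and integrated stress responses 24 rose and 1, XBP1, fell (median 1.45). Against the mimic alone 1 member was higher and 12 were lower, beside 17.3% and 16.2% of all genes tested, and against the siRNA alone 21 were higher and 1 lower, beside 15.0% and 16.7%. PPP1R15A (GADD34), which restores translation after stress, went from 42.5 and 27.5 CPM in NC to 304 and 301 CPM (log2 fold change 3.11, SE 0.21, adjusted p = 2.1e-05), with 181 and 149 CPM under the siRNA alone and 376 and 343 CPM under the mimic alone. ASNS, asparagine synthetase, went from 38.3 and 34 CPM to 201 and 198 CPM (log2 fold change 2.46, SE 0.10, adjusted p = 6.5e-08). CHAC1, which degrades glutathione, went from 0.810 and 0.614 to 4.14 and 5.60 CPM (log2 fold change 2.77, SE 0.24, adjusted p = 6.0e-06). None of the 3 overlapped between NC and the combined libraries. The transcription factors of the response rose by different amounts: ATF3 by 2.08, DDIT3 (CHOP) by 2.06 and ATF4, whose control is largely translational, by 0.45. The endoplasmic reticulum genes HERPUD1 (2.15) and HSPA5, the chaperone BiP (1.45), rose as well.

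Enzymes that charge tRNAs rose in the same way. Of 20 tested 18 rose and 1 fell, with a median of 0.77. The fall was that of QARS (-0.19, adjusted p = 0.043), and it was not called in a fit of the 4 libraries alone or without NC replicate 1 or either library of any other group. YARS, the tyrosyl-tRNA synthetase, rose from 60.4 and 56.7 CPM to 194 and 190 CPM (log2 fold change 1.71, SE 0.07, adjusted p = 5.0e-08). GARS, the glycyl-tRNA synthetase, went from 221 and 189 to 479 and 461 CPM (log2 fold change 1.2, SE 0.09, adjusted p = 2.9e-06). Of 20 heat shock and oxidative stress genes 15 rose and 1, NQO1, fell (median 0.94). HSPA6, an inducible HSP70 that is nearly silent in unstressed cells, went from 0.225 and 0.307 CPM in NC to 33.5 and 33.8 CPM (log2 fold change 6.95, SE 0.28, adjusted p = 2.1e-07), with 17.0 and 12.9 CPM under the siRNA alone and 100 and 78.9 CPM under the mimic alone. It had 5 and 7 counts in NC, so the size of its rise is uncertain. The co-chaperone DNAJB1 rose by 2.88 and GCLC, the first enzyme of glutathione synthesis, by 2.25. HSPA1A and HSPA1B stood at 3.37 and 3.53, but they are near-identical copies whose shares of reads are uncertain.

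Since these groups rose together, their promoters are shown with the letters that match a known element in capitals. The windows run from 250 bases before to 50 after the transcript start in RefSeq on GRCh38.p14. The first 3 carry the composite element of C/EBP and ATF factors, searched as TGATGNAA on both strands: ASNS at chr7:97872359-97872658 on the minus strand, CHAC1 at chr15:40953221-40953520 on the plus strand and IARS, the isoleucyl-tRNA synthetase (log2 fold change 0.91), at chr9:92293648-92293947 on the minus strand. The match begins at -68 from the start in ASNS, -209 in CHAC1 and -13 in IARS. HSPA6 at chr1:161524290-161524589 on the plus strand holds the core of the heat shock element, searched as GAANNTTC, at -180 and -69.
ASNS: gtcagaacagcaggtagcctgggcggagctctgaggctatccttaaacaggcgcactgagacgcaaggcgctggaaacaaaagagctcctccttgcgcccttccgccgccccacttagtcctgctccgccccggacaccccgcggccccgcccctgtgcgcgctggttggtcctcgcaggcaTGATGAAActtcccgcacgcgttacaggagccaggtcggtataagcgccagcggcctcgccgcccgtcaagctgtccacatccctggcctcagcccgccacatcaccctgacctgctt
CHAC1: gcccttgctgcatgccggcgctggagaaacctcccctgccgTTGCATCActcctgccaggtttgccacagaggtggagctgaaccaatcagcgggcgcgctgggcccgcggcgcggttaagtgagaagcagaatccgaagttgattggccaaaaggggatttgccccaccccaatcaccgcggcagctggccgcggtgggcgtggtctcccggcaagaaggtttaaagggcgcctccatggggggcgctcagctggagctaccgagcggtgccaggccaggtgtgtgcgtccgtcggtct
IARS: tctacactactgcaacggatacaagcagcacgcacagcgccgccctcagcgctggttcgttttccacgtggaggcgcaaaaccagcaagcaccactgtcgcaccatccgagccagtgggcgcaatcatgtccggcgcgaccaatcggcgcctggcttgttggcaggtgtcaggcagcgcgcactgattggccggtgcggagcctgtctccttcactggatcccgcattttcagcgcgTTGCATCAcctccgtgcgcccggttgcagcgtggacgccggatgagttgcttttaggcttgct
HSPA6: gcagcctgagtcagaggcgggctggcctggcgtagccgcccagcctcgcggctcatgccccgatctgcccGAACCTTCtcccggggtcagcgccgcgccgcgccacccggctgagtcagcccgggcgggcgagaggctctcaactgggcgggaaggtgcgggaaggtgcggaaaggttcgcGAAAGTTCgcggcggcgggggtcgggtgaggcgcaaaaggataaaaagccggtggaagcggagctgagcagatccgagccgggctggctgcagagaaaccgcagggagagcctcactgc

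TGATGNAA was found in 5 of 22 promoters (22.7%) of the integrated stress list and 6 of 16 (37.5%) of the tRNA synthetases, beside 2.1% of the promoters of genes tested and 3.7% of all promoters in the table. It was also in 3 of 15 (20%) of the FXR list, which had no common direction, those of ABCB11, SLC27A5 and SLC51B, and in none of the cholesterol, fatty acid or heat shock lists. Among genes at least 2-fold higher 4.4% held it and among those at least 2-fold lower 1.8%. GAANNTTC was in 5 of 17 promoters (29.4%) of the heat shock and oxidative stress list, beside 5.0% of those of genes tested. It was in 2 of 15 (13.3%) of the FXR list, 2 of 16 (12.5%) of the tRNA synthetases, 1 of 14 (7.1%) of the fatty acid list, 1 of 22 (4.5%) of the integrated stress list and 0 of 19 of the cholesterol list. The sterol regulatory element, searched as TCACNCCAC on both strands, was in 1 of 19 promoters (5.3%) of the cholesterol list, that of SREBF2, beside 1.1% of those of genes tested. The seed complement CACCTGT was in 4.0% of promoters of genes at least 2-fold lower and 3.3% of those at least 2-fold higher. A match is only a description of letters in these windows.

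The widest changes were between near silence and clear expression. LEAP2 (chromosome 5, 132872322 to 132875046, plus strand), a liver peptide that antagonises the ghrelin receptor, had 0 counts in NC and with the mimic alone. It was at 17.5 and 9.01 CPM in the combined libraries and 13.1 and 12.8 CPM with the siRNA alone. Against a floor of 3 counts per library the combined libraries were at least 99.3-fold higher than NC. HIST2H2BE (chromosome 1, 149884459 to 149886652, minus strand), a histone H2B gene, was at 9.90 and 9.29 CPM in NC and at 0 in the 4 libraries with importin8 siRNA, at least 67.0-fold lower. No other tested gene had 0 counts in the 4 libraries of one siRNA arm and at least 20 in each of the other 4. The floor covers counting error only. It does not cover how reads are shared out among similar genes, such as those of histone H2B, which is uncertain.

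Among other large rises, HAL, the histidine ammonia-lyase (chromosome 12, 95972662 to 95996365, minus strand), went from 0.585 and 0.394 CPM to 60.1 and 57.6 CPM (log2 fold change 6.90, SE 0.15, adjusted p = 1.9e-09). IGFBP1, an insulin-regulated binding protein of IGFs, went from 91.9 and 43.0 CPM to 3939 and 4003 CPM (log2 fold change 5.88, SE 0.39, adjusted p = 6.4e-05). AGR2, a disulfide isomerase of secretory cells, went from 0.630 and 0.394 to 31.5 and 32.9 CPM (log2 fold change 5.96, SE 0.16, adjusted p = 7.0e-09). The 2 NC values of IGFBP1 differed from each other. ADH4, an alcohol dehydrogenase of hepatocytes, was at 0.450 and 0.263 CPM in NC and 31.4 and 29.9 CPM in the combined libraries (log2 fold change 6.41, SE 0.18, adjusted p = 7.0e-09). The complement receptor C5AR1, with 1 and 5 counts in NC, had 629 and 680 in the combined libraries. Counts in NC were also few for ADH4 (10 and 6), HAL (13 and 9) and AGR2 (14 and 9), so the sizes of their rises are uncertain. SLC16A6, a transporter of the monocarboxylate family, rose from 0.720 and 1.01 CPM to 63.4 and 51.1 CPM (log2 fold change 6.04, SE 0.24, adjusted p = 2.3e-07).

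Among the falls, SLC6A12 (chromosome 12, 190077 to 214570, minus strand), a transporter of betaine and GABA, went from 426 and 419 CPM in NC to 0.625 and 0.237 CPM (log2 fold change -9.92, SE 0.15, adjusted p = 2.0e-10). It had 13 and 5 counts in the combined libraries, so the size of its fall is uncertain. PGC, the pepsinogen C precursor, went from 2264 and 2310 CPM to 28.6 and 31.3 CPM (log2 fold change -6.25, SE 0.10, adjusted p = 2.0e-10). CDH16, a kidney-type cadherin, went from 274 and 303 to 1.97 and 1.66 CPM (log2 fold change -7.31, SE 0.13, adjusted p = 9.4e-10). The water channel AQP6 had 529 and 618 counts in NC and 1 and 2 in the combined libraries. GLP2R, the receptor of glucagon-like peptide-2, had 643 and 704 counts in NC against 3 and 1, and PTGS1 (cyclooxygenase-1) had 721 and 933 against 3 and 2. With so few counts in the combined libraries no fold is given for these 3.

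**Figure D3:**
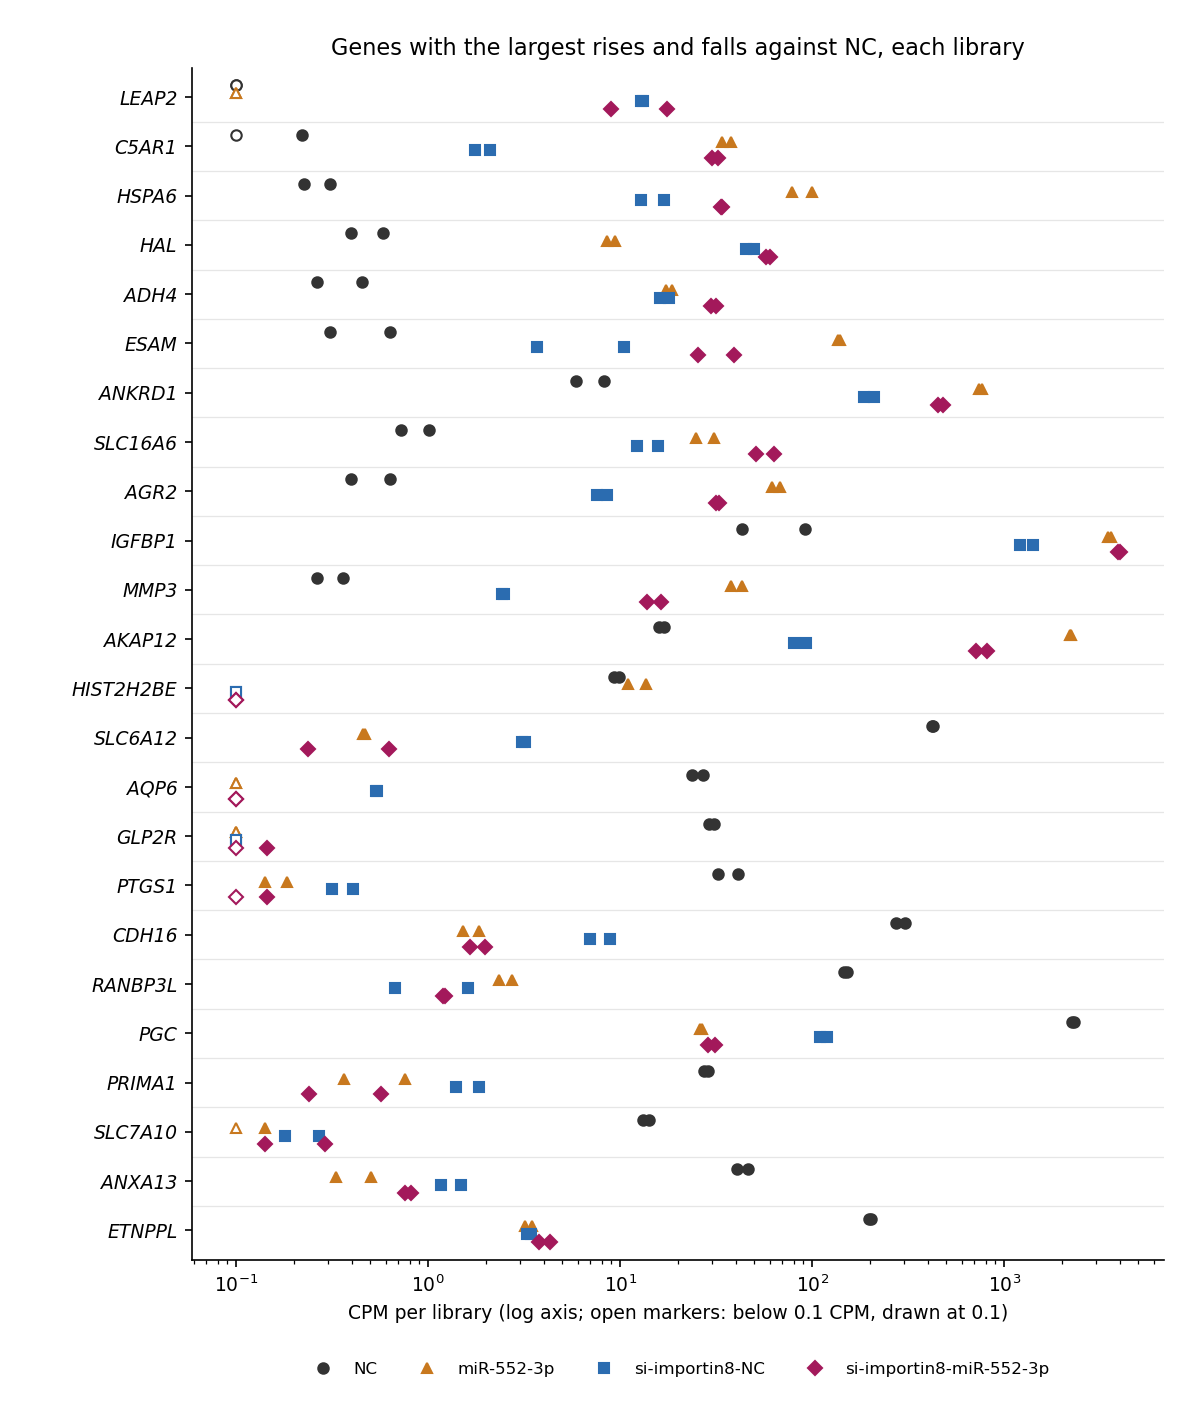
CPM on a log axis (horizontal) in each of the 8 libraries for the 12 genes with the largest called rises and the 12 with the largest falls among those with a mean of at least 100 counts (vertical axis), 1 marker per library with shape and colour giving the group, and open markers for values below 0.1 CPM, drawn at 0.1. NC and combined markers do not overlap for any of these genes, which was a condition for being drawn.

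Genes of the matrix, the cytoskeleton and growth factor signalling were higher in many cases. In the list of the TGF-beta, YAP and matrix response 11 of 19 rose and 4 fell, with the highest median of the 34 lists (1.83). ANKRD1, a YAP target, went from 8.19 and 5.92 CPM to 479 and 452 CPM (log2 fold change 6.05, SE 0.14, adjusted p = 2.1e-09). TAGLN (transgelin) went from 0.360 and 0.745 to 21.5 and 22.8 CPM (log2 fold change 5.30, SE 0.25, adjusted p = 3.4e-07). The stromelysin MMP3 went from 0.360 and 0.263 to 16.3 and 13.8 CPM (log2 fold change 5.57, SE 0.20, adjusted p = 2.0e-08). Both combined libraries were far above both NC libraries in all 3. NC values of TAGLN and MMP3 were low, with 8 and 6 counts for MMP3, so the sizes of their rises are uncertain. PLAU, the urokinase, moved the other way (-4.36). Among 27 actin cytoskeleton and annexin genes 18 rose and 4 fell. AKAP12, a kinase scaffold, went from 17.0 and 15.9 CPM to 815 and 717 CPM (log2 fold change 5.54, SE 0.12, adjusted p = 1.9e-09). MYOF (myoferlin) went from 0.225 and 0 to 4.23 and 3.61 CPM (log2 fold change 5.07, SE 0.53, adjusted p = 5.4e-05), while ANXA13 was at -5.77. NC values of MYOF were near the floor of 3 counts per library, so the size of its rise is uncertain. ACTB and ACTG1, the cytoplasmic actins, rose by 1.18 and 1.45, and their similar sequences make the split between them uncertain.

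Epithelial genes rose in 11 and fell in 3 of 19 cases. KRT20, an intestinal-type keratin, went from 0.0450 and 0.175 CPM to 8.70 and 7.64 CPM (log2 fold change 6.13, SE 0.29, adjusted p = 9.3e-08). Its NC values lay near the floor of 3 counts per library, so the size of its rise is uncertain. KRT23 rose by 3.87 and E-cadherin (CDH1) by 2.96. In the list of AP-1, EGF receptor ligands and ERK feedback 15 of 23 rose and 7 fell. The ligand EREG rose from 0.180 and 0.0438 CPM in NC to 2.93 and 2.32 CPM in the combined libraries (log2 fold change 4.49, SE 0.39, adjusted p = 5.7e-06). NC values of EREG were near that floor too, and the size of its rise is uncertain. The ligand AREG rose from 1.40 and 1.40 CPM to 26.5 and 24.2 CPM (log2 fold change 4.18, SE 0.16, adjusted p = 3.7e-08). The ERK phosphatase DUSP5 (4.38) and JUN (1.98), a subunit of AP-1, rose with them. Their receptor went down: EGFR fell from 169 and 174 CPM to 35.8 and 38.1 CPM (log2 fold change -2.21, SE 0.07, adjusted p = 1.2e-08). ERBB2 (-1.90) and the ligand TGFA (-2.21) were lower too.

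Hepatocyte products did not share a direction. In the plasma carrier list 5 rose and 8 fell of 20, with 8 rises without NC replicate 1 and 5 falls without combined replicate 1. With all libraries the shares of this list were 25.0% higher and 40.0% lower, beside 28.5% and 27.8% of all genes tested. GC, the vitamin D binding protein, fell from 7.56 and 7.23 CPM to 0.337 and 0.237 CPM (log2 fold change -4.66, SE 0.42, adjusted p = 8.0e-06). Its combined values lay near the floor of 3 counts per library, so the size of its fall is uncertain. HPX (hemopexin) fell from 19.4 and 23.1 to 2.40 and 3.32 CPM (log2 fold change -2.89, SE 0.18, adjusted p = 5.3e-07). ALB was at 0.16 (adjusted p = 0.23, and called without NC replicate 1 and in DESeq2) and AFP rose by 0.60. TTR stood at 323 and 232 CPM in NC and 265 and 279 CPM in the combined libraries (log2 fold change -0.03, SE 0.13, adjusted p = 0.88), and its value was 0.23 without NC replicate 1 (adjusted p = 0.021) and -0.24 without NC replicate 2 (adjusted p = 0.016). Of 25 coagulation and complement factors 12 rose and 6 fell (48.0% and 24.0%, beside the same shares of all genes). Besides fibrinogen, F13B, the carrier subunit of factor XIII, rose by 2.92 and complement C5 by 2.54, and factor V (F5) fell by 1.44 on the log2 scale. In the acute phase list 10 of 19 rose and 6 fell: the iron hormone HAMP went from 2.84 and 1.05 CPM to 23.3 and 29.6 CPM (log2 fold change 3.77, SE 0.32, adjusted p = 7.5e-05). CXCL8 rose by 3.41, and SAA1 had 18 and 22 counts in NC and 0 in both combined libraries, at least 6.19-fold lower against the same floor (adjusted p = 0.0048). NFKBIA, the inhibitor of NF-kB, fell by 2.30 on the log2 scale.

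Hepatocyte transcription factors fell more often than they rose, 12 against 3 of 21 (median -0.30). NR5A2 (LRH-1), a partner of SHP in bile acid control, went from 48.2 and 44.8 CPM to 4.86 and 4.84 CPM (log2 fold change -3.26, SE 0.10, adjusted p = 8.5e-09), and GATA4 (-2.07), GATA6 (-1.74) and PPARA (-1.12) fell. HNF4A stayed short of the threshold (-0.09, adjusted p = 0.3) except with library totals (-0.18, adjusted p = 0.031), and CEBPB rose by 1.24. Of 12 cytochromes and their reductase 7 fell and 4 rose (58.3% and 33.3%, beside 27.8% and 28.5% of all genes tested). CYP3A7, the fetal enzyme of the CYP3A cluster, fell from 23.6 and 21.9 CPM to 0.625 and 1.19 CPM (log2 fold change -4.64, SE 0.25, adjusted p = 2.4e-07), CYP3A5 was at -3.59 and CYP1A1 at -2.76, with the caution that CYP3A genes share sequence. Conjugation enzymes and transporters mostly rose, 16 of 23 with 3 falls: the bilirubin-conjugating UGT1A1 by 2.03, the estrogen sulfotransferase SULT1E1 by 3.08 and the efflux pump ABCG2 by 1.70. The uptake carrier SLC22A7 fell from 5.72 and 6.88 CPM to 0.144 and 0.237 CPM (log2 fold change -5.00, SE 0.36, adjusted p = 1.6e-06). Its combined values lay near the floor of 3 counts per library, so the size of its fall is uncertain.

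**Figure D4:**
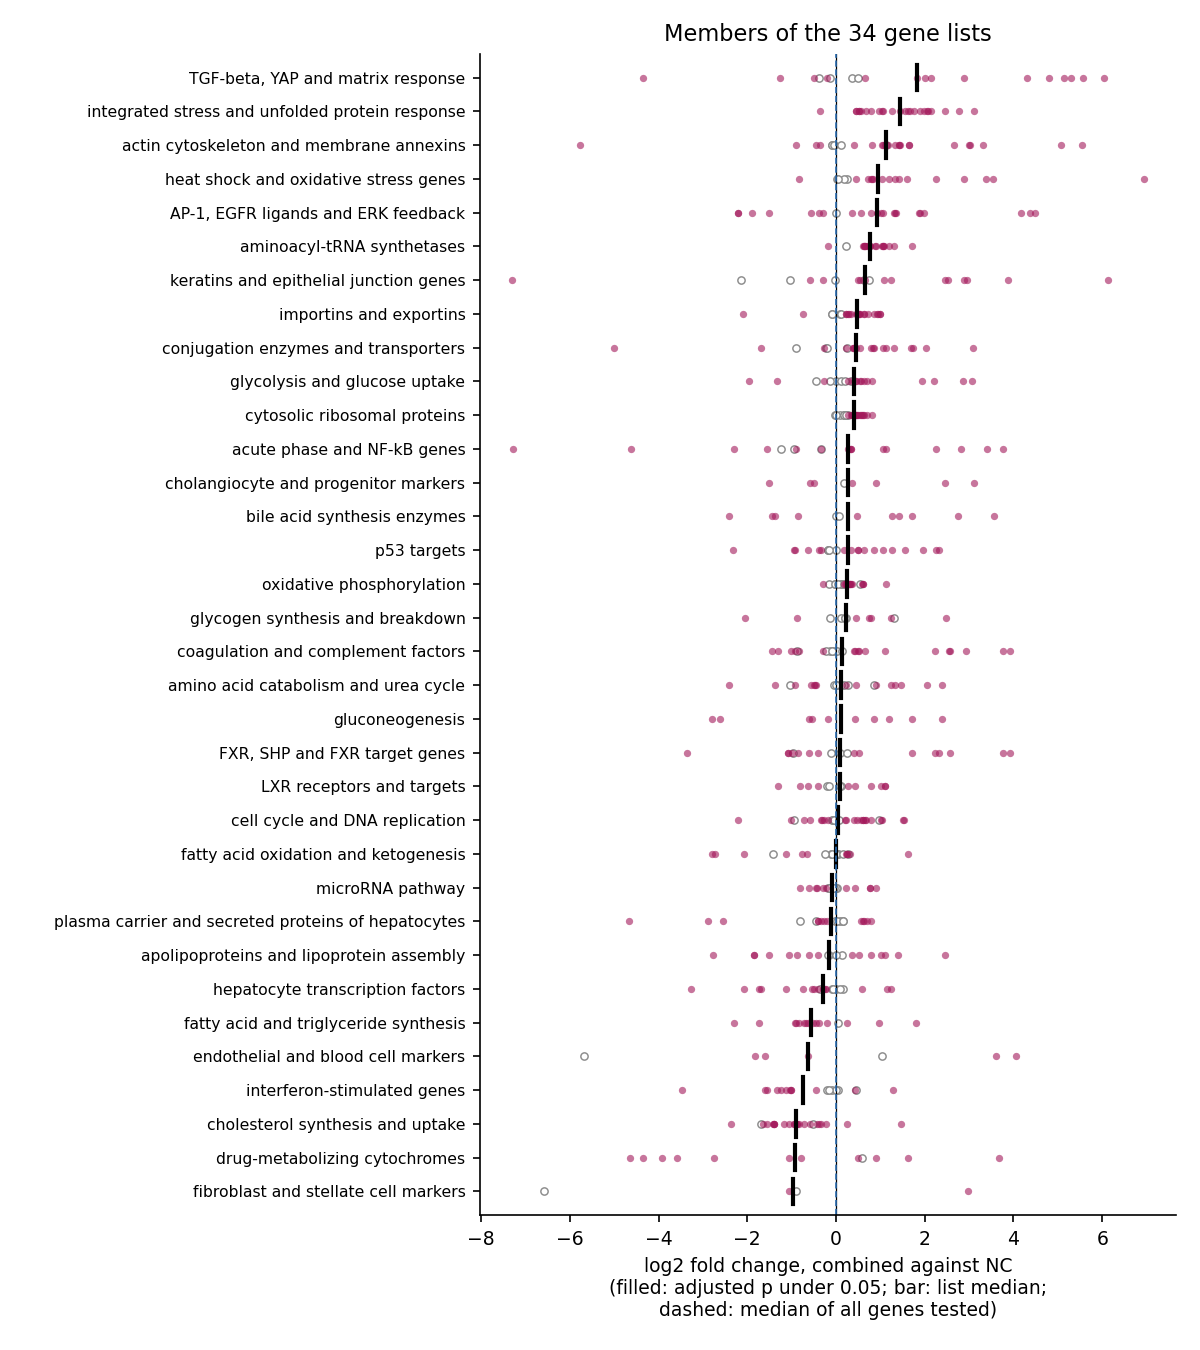
Log2 fold change of the combined libraries over NC (horizontal axis) for each tested member of the 34 gene lists (vertical axis, ordered by list median), filled where the adjusted p was under 0.05, with a bar at the list median and a dashed line at the median of all genes. The TGF-beta, YAP and matrix list (median 1.83) and the integrated stress list (1.45) stand at the top, and the cholesterol (-0.89), cytochrome (-0.92) and fibroblast marker (-0.97) lists at the bottom.

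Proliferation genes moved both ways from NC. Of 32 cell cycle and replication genes 14 rose (43.8%) and 8 fell (25.0%), beside 28.5% and 27.8% of all genes tested, with 5 falls without NC replicate 1 or combined replicate 2. The median was 0.04 and the summed level was 1785 and 1674 CPM in NC and 1868 and 1857 CPM in the combined libraries. The single treatments lay on either side, at 1137 and 1144 CPM with the mimic and 2831 and 2865 CPM with the siRNA. Members called higher numbered 24 and lower 1 against the mimic alone, beside 17.3% and 16.2% of all genes tested, and 0 and 26 against the siRNA alone, beside 15.0% and 16.7%. CDK1, the mitotic kinase, rose from 16.3 and 14.5 CPM to 49.9 and 39.9 CPM (log2 fold change 1.54, SE 0.14, adjusted p = 1.5e-05), and E2F2, a factor of entry into S phase, fell by 2.2 on the log2 scale. Of 22 p53 targets 12 rose and 6 fell (54.5% and 27.3%, beside 28.5% and 27.8% of all genes tested). GDF15, a secreted stress cytokine, was at 2.33 and TP53INP1 at -2.32.

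Among lists of broad function, 17 of 26 cytosolic ribosomal protein genes rose and 0 fell, with the large-subunit protein RPL35 at 0.82. The summed level was 13588 and 11136 CPM in NC, which differed from each other, and 16033 and 16194 CPM in the combined libraries. Of 24 oxidative phosphorylation genes 14 rose and 1 fell, with cytochrome c1 (CYC1) at 1.12 and the cytochrome oxidase subunit COX4I1 at -0.29. Of 18 interferon-stimulated genes 10 fell and 2 rose (median -0.73), with IFI6 going from 40.0 and 34.6 CPM to 3.13 and 3.65 CPM (log2 fold change -3.46, SE 0.14, adjusted p = 3.6e-08). In the microRNA pathway 5 of 18 rose and 6 fell (27.8% and 33.3%), close to the shares over all genes tested, with AGO2, the slicing Argonaute, at 0.90 and DGCR8, the partner of Drosha, at -0.80.

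Among genes with a usual symbol and a mean of 100 or more counts, 468 were called in the same direction against all 3 other groups. How many of the 17715 genes tested met those conditions was not counted. ANGPTL2, a secreted angiopoietin-like protein, was at 7.74 and 5.78 CPM in NC, 41.5 and 39.1 with the mimic, 36.2 and 28.6 with the siRNA and 74.9 and 76.2 in the combined libraries, where it was highest. TSFM, a mitochondrial elongation factor, was at 18.9 and 19.6 CPM in NC, 19.9 and 18 with the mimic, 23.3 and 28.8 with the siRNA and 121 and 68.6 in the combined libraries, which differed from each other but not to the point of overlap. INTS2, a subunit of the Integrator complex, was lowest in the combined libraries, at 20.6 and 17.5 CPM in NC, 12 and 8.76 with the mimic, 10.1 and 7.42 with the siRNA and 3.61 and 4.22 in the combined libraries. PPP1R10, a nuclear regulator of protein phosphatase 1, was lowest there as well, at 78.1 and 81.4 CPM in NC, 20.5 and 24.1 with the mimic, 17.7 and 22.4 with the siRNA and 10.6 and 11.4 in the combined libraries. SERPING1, the C1 inhibitor, rose by 2.44 over NC, with 0.99 against the mimic alone (adjusted p = 4.1e-05) and 1.54 against the siRNA alone (adjusted p = 6.1e-06). The 5 genes were chosen for being called the same way in the 3 comparisons, so their order is a description.

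Levels can be compared between genes only per length, as FPKM. By that scale, among called genes with a usual symbol, both the largest gains and the largest losses in transcript abundance included secreted proteins. The gains also included proteins that are not secreted, such as ACTB and ACTG1, and A2M was among the losses (2867 ± 80.1 to 924 ± 8.29 FPKM). APOA2 went from 1952 ± 85.7 FPKM in NC to 4839 ± 399 FPKM (mean ± SD, n = 2 libraries in each group) and IGFBP1 from 43.6 ± 21.0 to 2431 ± 51.5 FPKM. The largest losses included APOA1, from 2067 ± 92.4 to 928 ± 32.1 FPKM, and PGC, from 1738 ± 86.3 to 21.3 ± 1.59 FPKM. GPX2, a glutathione peroxidase of epithelia, fell from 1202 ± 37.6 to 140 ± 5.81 FPKM. Genes without a usual symbol were left out of this ranking, among them the gene with the most counts in every library. That gene held 11.27% and 11.6% of the counts in NC and 6.9% and 7.34% in the combined libraries.

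Markers of other cell types were checked as lists. Of 11 fibroblast and stellate cell markers 4 had enough counts to be tested. The sum over all 11 was 21.1 and 13.8 CPM in NC and 10 and 11.4 CPM in the combined libraries. Of the 4 tested, 1 rose, COL1A1 from 0.270 and 0.351 CPM to 2.40 and 2.56 CPM, and 1 fell. In the endothelial and blood list 2 of 7 rose and 3 fell. CD68, a lysosomal protein of macrophages, rose from 5.27 and 8.06 CPM to 84.4 and 78.8 CPM, and CDH5 (VE-cadherin), called higher, had 2 and 1 counts in NC and 22 and 28 in the combined libraries. That list summed to 2472 and 2090 CPM in NC and 1515 and 1508 CPM in the combined libraries, mostly from LYZ (lysozyme). The cholangiocyte and progenitor list, with 4 rises and 3 falls among 8 tested, summed to 1009 and 944 CPM in NC and 1180 and 1214 CPM in the combined libraries, with KRT19 at 2.46, SOX4 at 3.10 and SOX9 at -1.51. The part of these markers in the results above was not tested.

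The complement of the miR-552-3p seed, CACCTGT, was counted in the longest annotated 3′ untranslated part of each gene tested (GENCODE release 29), a description added after the data were seen. Of 13748 genes with such a part 2647 (19.3%) held at least 1 match. The median log2 fold change was 0.05 for 11101 genes with none, -0.05 for 2016 genes with 1 and -0.09 for 631 genes with 2 or more. Called falls made up 28.1% of genes without a match and 34.6% of genes with 1 or more, and called rises 34.2% and 28.7%. Genes with a match had longer untranslated parts, with a median of 3037 bases against 1039 for those without. Within each of 3 length classes the share of called falls was again higher with a match, at 35.1% against 26.6% in the shortest, 34.2% against 29.5% in the middle and 34.7% against 28.5% in the longest. The same was counted where the mimic was the difference: 18.4% of genes without and 25.4% of genes with a match were called lower against the siRNA alone, and 31.1% and 35.4% for the mimic alone against NC. For the siRNA alone against NC, which has no mimic, the shares were 22.2% and 25.2% lower, and 31.2% and 27.4% higher. Against the siRNA alone, the classes from shortest to longest gave 23.4%, 27.2% and 25.0% lower with a match. Without a match they gave 17.6%, 20.6% and 16.8%. For the mimic alone against NC they gave 38.7%, 36.8% and 34.5% with and 30.9%, 32.4% and 29.7% without. For the siRNA alone against NC they gave 23.9%, 24.2% and 25.7% with and 20.3%, 22.5% and 24.7% without. Genes with a match were thus called lower more often in every one of these 4 comparisons, by unlike amounts. The comparisons share libraries, and the differences in share were not tested.

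Genes described above held a match in both directions. IGFBP1 (5.88), AKAP12 (5.54), CYP7A1 (2.74), PPP1R3B (2.47) and AGO2 (0.90) rose with 1 or more. The windows of 30 bases below, with the match in capitals, show 4 genes that fell and then 2 that rose, picked after their values were seen.
APOA4: gccctgccctgcCACCTGTctgtctgtctg
CYP8B1: tattgcatctctCACCTGTtctcacccctc
EGFR: ccacgtaggcaaCACCTGTtgaaattgccc
GLP2R: cattgattgtcaCACCTGTtgtcccaggaa
IGFBP1: tggtgatgttgcCACCTGTtaaaatgtaca
AKAP12: gtcttttcctacCACCTGTggccaggtgct

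NR1H4, NR0B2 and IPO8 had no match in their 3′ untranslated parts. EGFR and CYP8B1 differed in which comparison showed the fall. EGFR was at -2.21 against NC, with -1.32 against the mimic alone (adjusted p = 1.6e-06) and -0.05 against the siRNA alone (adjusted p = 0.68). CYP8B1 was at -2.42 against NC, with 1.74 against the mimic alone (adjusted p = 0.0045) and -2.94 against the siRNA alone (adjusted p = 3.7e-05). APOA4 was lower than with the siRNA alone (-2.16, adjusted p = 1.7e-04) and higher than with the mimic alone (1.04, adjusted p = 0.023). KLB, with 3 matches, stood between the single treatments as APOA4 did, with 0.85 against the mimic alone (adjusted p = 1.4e-05) and -1.53 against the siRNA alone (adjusted p = 5.9e-07).

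**Figure D5:**
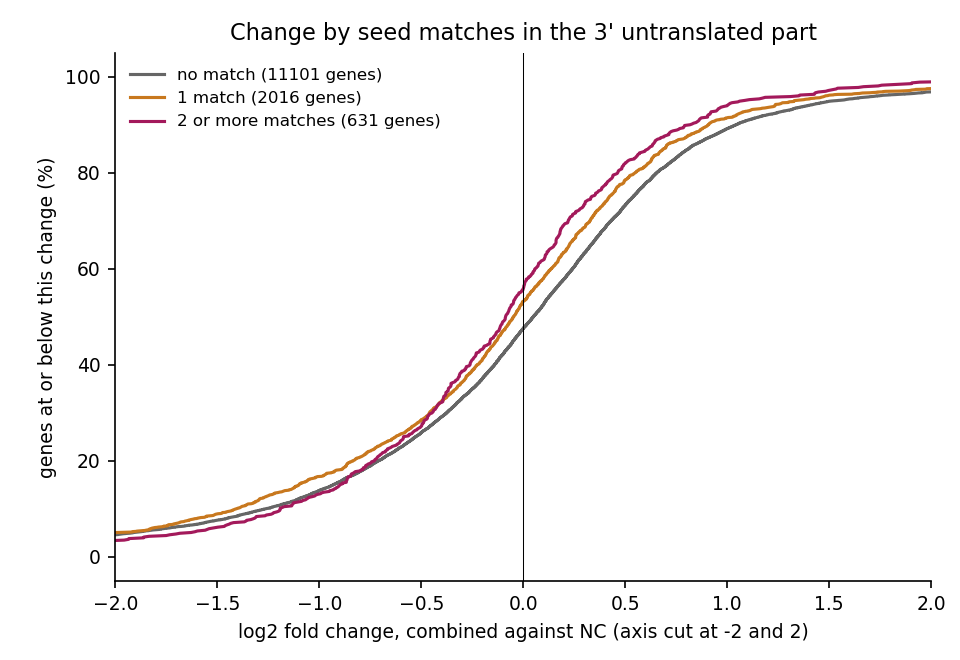
Cumulative share of genes (vertical axis, percent) by log2 fold change of the combined libraries over NC (horizontal axis), for genes with 0, 1 and 2 or more matches to the seed complement in the 3′ untranslated part. The curves lie close together, with medians of 0.05, -0.05 and -0.09.

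The measured state can also be set against the sum of both single effects on the log2 scale. That term was called for 5551 genes (31.3%) and was added after the data were seen. For NR1H4 the combined change exceeded the sum by 1.18 (adjusted p = 1.6e-05), and for CYP7A1 the term was -1.58 (adjusted p = 5.9e-04). The term uses the NC libraries with the opposite sign to the change itself, so it is not independent of the values above.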

How the data were processed

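Per the labels' protocols, oligo(dT)-purified RNA from HepG2 cells gave 8 libraries, read from a single end over 50 bases. Groups were taken from the titles. Per the file headers the deposited table gives a read count and an expression value per gene and library. The values behave as an expected count, shared out among similar genes, and as an FPKM, both made by the authors. The submitters' processing notes name HISAT2 2.0.4, Bowtie2 2.2.5, RSEM 1.2.8 and GRCh38.p12, with no role stated. Use of strand in counting is not given in any source read, so paralogs, overlapping genes and antisense genes are uncertain. A second table of 4 libraries repeats its read counts (0 differing cells) and added nothing.

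Expected counts were rounded to whole numbers, filtered with filterByExpr (17715 genes kept), scaled by TMM and fitted in edgeR 4.0.16 under R 4.3.3 (robust quasi-likelihood F test), with 1 coefficient for each group and all 8 libraries sharing the dispersion. A gene was called where its p, adjusted by Benjamini-Hochberg over all 17715, was under 0.05. Each SE was worked back from the log2 fold change and its F value and is approximate. CPM use TMM library sizes, and 3 counts per library were the floor for a group at 0. The fit was tried on simulated counts in which only a small part of the genes was changed. Most of the larger changes in well-expressed genes were called, in the right direction. Most genes were called in the real data, so that trial cannot vouch for the scaling or the error rate here. Alternatives were DESeq2 1.42.0, limma-voom (limma 3.58.1), other scalings and filters, a replicate block, the 4 libraries alone and each library left out.

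The rule for named genes took IPO8 and, among called genes with a usual symbol, those that ranked highest in several ways. These were the 12 largest rises and falls with a mean of 100 or more counts and no overlap between groups, and the 8 largest gains and losses in FPKM. With them came 6 genes in each direction called the same way in all 3 comparisons, again with a mean of 100 or more counts. It also took genes of the study's theme and up to 4 called members of each of 34 lists. A few other list members are named to give a list in both directions or because they belong to the pathway described. The members, lists and rule were chosen with earlier results of these data known. Promoters and miRNA sequences are from RefSeq (GRCh38.p14), and gene positions and 3′ untranslated parts from GENCODE release 29 (GRCh38). Some genes and 1 sequence are not reported here.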

Additional observations from a re-analysis of the deposited data

Results flagged for a closer look

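In 8 theme genes the change with both RNAs differed from the sum of the change with the mimic alone and that with the siRNA alone, all against NC, by edgeR's test of that difference. NR1H4 stood above the sum by 1.18 on the log2 scale (SE 0.10, adjusted p = 1.6e-05) and NR0B2 by 0.53 (SE 0.10, adjusted p = 0.0026). The lipogenic enzymes were above it too, FASN by 1.24 (SE 0.15, adjusted p = 1.9e-04), SCD by 1.07 (SE 0.11, adjusted p = 6.5e-05) and ACACA by 0.88 (SE 0.10, adjusted p = 1.4e-04). G6PC was above it by 1.54 (SE 0.34, adjusted p = 0.0065), a call that DESeq2 did not make (1.55, adjusted p = 0.052). CYP7A1, at -1.58 (SE 0.23, adjusted p = 5.9e-04), and ABCA1, at -0.96 (SE 0.12, adjusted p = 2.9e-04), were below the sum. Among all genes tested 31.3% were called for this difference. The NC libraries, both far from all others along principal component 1, enter each of these values, and their part in them was not tested.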

How the results depend on the processing

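Against NC the count of 9974 called genes was 8201 with DESeq2 and 8362 to 9834 when 1 library was left out. Against the mimic alone the count of 5934 was 4063 to 6390 with 1 library left out. Against the siRNA alone the count of 5607 (2649 higher, 2958 lower) was 3545 to 6087 with 1 library left out, with 1639 to 3095 higher and 1877 to 3071 lower; it was lowest without siRNA-alone replicate 2 (3545) and without combined replicate 1 (3551), and combined replicate 2 left out gave 1952 lower. DESeq2 called 1955 lower there. Deviations of same-numbered libraries correlated at -0.003 to 0.087, so no large deviation shared by number was seen. Such values cannot show whether the labels' numbers mark paired samples. With the replicate block the counts were 10069, 6121 and 5847, and among genes taken by the naming rule only PARN, a poly(A) ribonuclease, lost its call against NC (0.77, adjusted p = 0.052). Leaving out both NC libraries, chosen after seeing the data, gave 6482 and 6152 for the comparisons with the single treatments.

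Of 3323 values of those genes against NC under the alternatives 3289 kept direction and side of the threshold, 25 lost a call (in 5 genes: SREBF1, PCK1, NR1I3, CYP3A4 and PARN), 6 gained one and 3 turned sign. The sign turned for NR1H2 with library totals (-0.02), and for TTR without NC replicate 1 (0.23) and without combined replicate 1 (0.02), over a range with 1 library left out of -0.24 to 0.23. Elsewhere it turned for values near 0: NR1H2 against the mimic alone with library totals (-0.00), FASN against the siRNA alone with library totals (-0.07), without siRNA-alone replicate 1 (-0.07; range with 1 library left out -0.07 to 0.08) and without both NC libraries (-0.00), and SREBF1 beyond the sum of both effects without NC replicate 2 (-0.03), mimic-alone replicate 1 (-0.05) or combined replicate 2 (-0.06; range -0.06 to 0.12). The cause was not tested. Of 1224 list counts 1198 stayed within 1.5 times. Those that did not include the 1 fall in oxidative phosphorylation, which became 0 or 2, and the 1 fall among fibroblast markers, which became 2 with the replicate block.

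With 2 libraries per group, the spread rests on all 8 libraries. Genes with few counts, such as CYP8B1 or EREG, carry more counting error than abundant ones, and a difference that missed the threshold is not shown to be absent.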
